A study of Mus musculus with 10 samples.

Results

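Plasma cells are the antibody-secreting end stage of the B cell lineage, and 7 genes that serve to recognise them were followed here in mouse bone marrow (BM) rebuilt from vitamin D-deficient or vitamin D-sufficient fetal stem cells. The 7 and the gene lists set beside them were chosen with earlier results of these data known. The 7 were picked by name for their roles. They are 3 transcription factors (Prdm1, Irf4 and Xbp1), 2 surface proteins (Sdc1 and Tnfrsf17) and 2 proteins of the endoplasmic reticulum (Mzb1 and Derl3). All 7 were measured, among 19938 genes in all, and each had 1 probe set that names no other gene.

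The study asked whether vitamin D (VD) deficiency before birth leaves a lasting mark on hematopoietic stem cells (HSCs). Dams ate a VD-deficient or a VD-sufficient diet from before pregnancy, fetal liver cells of their embryos were injected into lethally irradiated VD-sufficient mice, and total RNA of the recipients' BM was hybridised to whole-transcript mouse gene arrays. The 10 arrays fall into 5 of VD(-) HSC recipient BM and 5 of VD(+) HSC recipient BM, all of strain C57BL6. In each group 3 arrays have a number alone in their titles (replicates 1, 2 and 3) and are read here as single samples. The other 2 are titled as pools (pool1 and pool2).

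The 2 groups differ in the diet of the donors' dams. Irradiation, the transplant and the VD-sufficient state of the host are common to both, and the study's methods speak of donor pools of mixed sex and of recipients with a high share of donor cells. The labels give an age of 8 weeks for mice of both sexes, whereas the study's own accounts of the time of collection differ from one another. Of the labels, the source field has BM and the treatment field has BM macrophages. Markers of several lineages were bright, with 0 of 12 neutrophil genes and 0 of 9 erythroid genes below the median of their arrays. No label says whether a pool shares RNA with the single samples, so p-values here speak of the spread among arrays, which may be technical in part.

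Plasma cells arise when an activated B cell switches off its B cell program. Blimp-1, encoded by Prdm1, and IRF4 drive the switch, and XBP1 enlarges the endoplasmic reticulum for the secretion of antibody. Long-lived plasma cells settle in the BM, where stromal and myeloid cells supply the chemokine CXCL12 and the cytokines APRIL and BAFF that hold them and keep them alive. They can outlast irradiation, so the BM of a transplanted mouse can hold plasma cells of the host, and these probe sets do not separate host RNA from donor RNA. None of the 7 genes belongs to plasma cells alone. Irf4 is also used by developing B cells, Xbp1 by most secretory cells, Sdc1 by epithelia, and Mzb1 by other B cells and plasmacytoid dendritic cells.

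All values are log2 intensities as the authors deposited them, differences are VD(-) less VD(+) on that log2 scale, and means are given with the SD over 5 arrays. A member was called if its adjusted p from limma, with Benjamini-Hochberg correction over 35556 probe sets, was under 0.05. No member was called (0 of 7), against 0.118% of all probe sets. At an unadjusted p under 0.05 the count was also 0 of 7, where 7.09% of probe sets passed in either direction. At the thresholds of the study's methods (an unadjusted p and a minimum ratio) it was 0 of 7 as well, against 5.18% of probe sets with the methods' t-test and 5.88% with limma. The groups did not separate for any member, against 1.55% of probe sets with no overlap between the groups. The differences of 3 members were above 0 and those of 4 below, with a median of −0.044 beside 0.0010 over the 19938 genes, of which 50.3% lay above 0. The median size of the difference, whatever its sign, was 0.12 for the members and 0.079 for all genes. In bulk BM, fewer plasma cells and less RNA in each of them cannot be told apart.

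**Figure D1:**
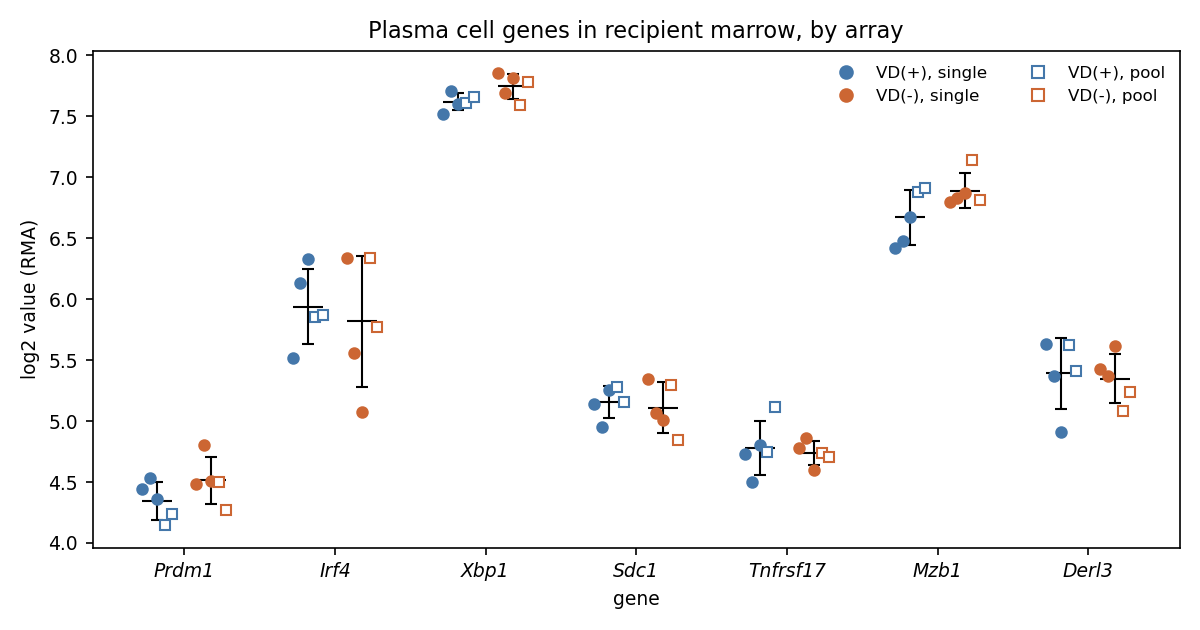
Log2 intensity of the 7 plasma cell genes on each array, with VD(+) and VD(-) HSC recipient BM side by side (circles, single samples, open squares, pools, bars, group means with SD, n = 5 each). The groups overlap for every gene, and the widest spread between arrays is that of Irf4, from 5.08 to 6.34.

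Prdm1, the repressor that shuts down the B cell program, was measured in VD(+) replicates 1, 2 and 3 and pools 1 and 2 at 4.44, 4.53, 4.36, 4.15 and 4.24. In VD(-) the same order of arrays gave 4.48, 4.80, 4.51, 4.50 and 4.27. VD(-) replicate 2 lay above all VD(+) arrays, both VD(+) pools lay below all VD(-) arrays, and the other 7 arrays overlapped. The means were 4.51 ± 0.19 in VD(-) and 4.34 ± 0.15 in VD(+), a difference of 0.17 (SE 0.11, 95% CI −0.070 to 0.41). That is a ratio of 1.12 with an interval from 0.953 to 1.33, an adjusted p of 0.796 by limma and a p of 0.167 by a two-sided exact permutation test of the 10 arrays. The smallest p this test can give with 5 arrays against 5 is 0.00794. The signal was dim. Its mean of 4.43 exceeded the means of 45.5% of probe sets, so that a change of the RNA may be understated by the background of the array.

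Irf4, a transcription factor whose high levels favour the plasma cell fate, was the most variable member. The 5 VD(+) arrays, in the same order, gave 5.52, 6.13, 6.32, 5.85 and 5.87. The 5 VD(-) arrays gave 6.34, 5.56, 5.08, 6.34 and 5.77. The VD(-) values took both ends of the range, with replicate 1 and pool1 at the top and replicate 3 at the bottom. The within-group SD of 0.438 was larger than that of 90.2% of probe sets. The means of 5.82 ± 0.54 and 5.94 ± 0.31 differed by −0.12 (SE 0.25, 95% CI −0.66 to 0.42, adjusted p = 0.946 by limma, exact permutation p = 0.675). The interval reaches from a ratio of 0.632 to 1.34, which is the least precise of the 7.

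In VD(-), 3 arrays carried signal of Y-linked genes (means of Kdm5d, Eif2s3y and Uty of 6.64 in replicate 1, 6.80 in pool1 and 5.31 in pool2), and the other 7 arrays lay between 2.25 and 2.56. With the mean of these 3 genes less Xist as a covariate (the Y-linked covariate), the difference of Irf4 was −0.63 (SE 0.20, unadjusted p = 0.00933, adjusted p = 0.493 by limma). On the 7 arrays without Y-linked signal, the difference was −0.62 (unadjusted p = 0.0272 by limma), with 2 VD(-) arrays left. Only VD(-) arrays carried the signal, so it is partly confounded with the group. Both fits largely set VD(-) replicates 2 and 3 against VD(+), so they are not 2 separate results. The high and low VD(-) values of Irf4 thus went with the arrays with and without Y-linked signal, and the part of that signal in the result was not tested.

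Xbp1, the transcription factor of the secretory program, was the steadiest member, and its within-group SD of 0.0885 was larger than that of only 8.21% of probe sets. VD(+) arrays read 7.52, 7.7, 7.60, 7.61 and 7.66, and VD(-) arrays read 7.85, 7.69, 7.81, 7.59 and 7.78. Of the VD(-) arrays 3 exceeded every VD(+) array, and VD(-) pool1 lay among the lower VD(+) values. The means of 7.74 ± 0.10 and 7.62 ± 0.070 differed by 0.13 (SE 0.070, 95% CI −0.028 to 0.28), or a ratio of 1.09 with an interval from 0.981 to 1.22. The adjusted p was 0.754 by limma and the exact permutation p was 0.0714. Without VD(-) pool1 the unadjusted p was 0.0384 by limma.

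Sdc1 encodes syndecan-1 (CD138), the proteoglycan by which plasma cells are usually sorted. VD(+) arrays gave 5.14, 4.95, 5.25, 5.28 and 5.16, and VD(-) arrays 5.35, 5.06, 5.01, 5.29 and 4.84. VD(-) held both the highest array (replicate 1) and the lowest (pool2). The difference was −0.045 (SE 0.11, 95% CI −0.28 to 0.19, adjusted p = 0.957 by limma, exact permutation p = 0.690), a ratio between 0.822 and 1.14. The mean of Sdc1 exceeded those of 55.4% of probe sets, not far above the middle of the array.

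Tnfrsf17 encodes BCMA, the receptor through which APRIL and BAFF keep long-lived plasma cells alive. Its VD(+) values were 4.73, 4.50, 4.80, 4.75 and 5.12 and its VD(-) values 4.78, 4.86, 4.60, 4.74 and 4.70. All 5 VD(-) arrays lay within the VD(+) range, whose ends were set by replicate 2 and pool2. The difference of −0.044 (SE 0.11, 95% CI −0.28 to 0.19) had an adjusted p of 0.957 by limma and an exact permutation p of 0.722. Its mean exceeded those of 50.3% of probe sets, so it too was measured near the middle of the array, where much of a signal can be background.

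Mzb1, a chaperone of the endoplasmic reticulum that helps to assemble immunoglobulin, had the largest difference of the 7. VD(+) arrays gave 6.42, 6.47, 6.67, 6.88 and 6.91, and VD(-) arrays gave 6.80, 6.83, 6.87, 7.14 and 6.81. The 3 single VD(+) samples lay below all VD(-) arrays, the VD(+) pools lay among them, and VD(-) pool1 was above every other array. The means of 6.89 ± 0.14 and 6.67 ± 0.23 differed by 0.22 (SE 0.12, 95% CI −0.034 to 0.48), a ratio of 1.17 with an interval from 0.976 to 1.39. Limma gave an adjusted p of 0.746, and the exact permutation p was 0.127. In the single samples alone the difference was 0.31 (unadjusted p = 0.0243 by limma), and in the pools alone it was 0.083 (unadjusted p = 0.618). Markers of plasmacytoid dendritic cells, which also use Mzb1, had list means per array from 6.73 to 7.11 in VD(-) and from 6.72 to 7.12 in VD(+), with 6 of 9 above 0 and a median difference of 0.0068. At an unadjusted p under 0.05 in limma, 1 was higher (Ccr9, 0.43) and 1 lower (Bst2, −0.30). All probe sets gave 3.85% and 3.23%, and 0 of the 9 passed the adjusted p. The part of these cells in the values of Mzb1 was not tested. The difference between pools and single samples was itself tested, and 0 of 7 members passed an unadjusted p under 0.05 in limma.

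Derl3 encodes Derlin-3, which takes part in removing misfolded proteins from the endoplasmic reticulum and is induced with the unfolded protein response. The 250 bases before its start, from RefSeq (GRCm38.p6, chr10:75893148-75893397, plus strand), are shown because they held the densest set of XBP1-related motifs among the members, with the motif letters in capitals.

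Derl3: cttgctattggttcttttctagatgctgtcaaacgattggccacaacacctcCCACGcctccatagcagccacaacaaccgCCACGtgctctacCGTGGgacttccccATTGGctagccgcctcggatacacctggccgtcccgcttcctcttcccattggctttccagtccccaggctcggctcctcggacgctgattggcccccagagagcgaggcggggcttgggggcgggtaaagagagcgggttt

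The capitals mark the 5-letter core of the ER stress element (CCACG), found 3 times on the 2 strands, and the ATTGG that, with CGTGG, makes 1 full element (CCAAT and CCACG with 9 bases between them) on the minus strand. Both strands of 32851 windows of the same length were searched. The core occurred in 28.3% and the full element in 0.113% of them. RefSeq windows were found for 6 of 7 members (the other is Mzb1), the core stood in 4 of these 6 (Prdm1, Irf4, Sdc1 and Derl3) and the full element in Derl3 alone. TGACGTGG, an XBP1 element whose other strand contains the core, was in no member and in 0.563% of windows. A match is a run of letters and shows no binding.

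The VD(+) arrays gave Derl3 values of 5.63, 5.37, 4.91, 5.62 and 5.41, and the VD(-) arrays 5.43, 5.37, 5.62, 5.08 and 5.24. All VD(-) values lay within the VD(+) range. The mean of Derl3 exceeded those of 58.6% of probe sets. The difference was −0.044 (SE 0.15, 95% CI −0.37 to 0.28, adjusted p = 0.970 by limma, exact permutation p = 0.786). It was 0.17 in the single samples and −0.36 in the pools (unadjusted p = 0.0576 by limma). The test of pools less single samples gave −0.52 (SE 0.28, unadjusted p = 0.0952, adjusted p = 1.0 by limma), the lowest unadjusted p of the 7 in that test.

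**Figure D2:**
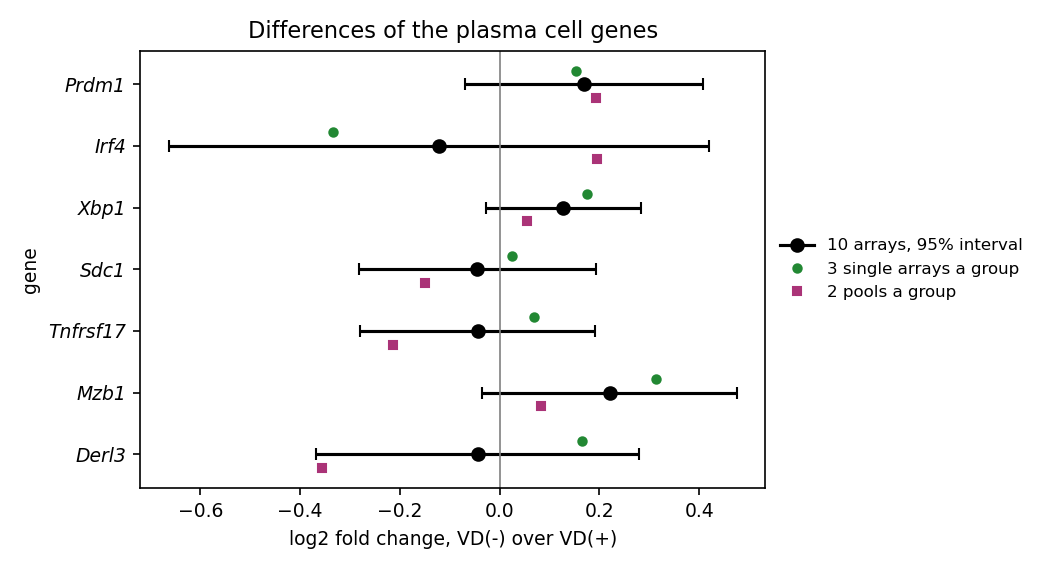
Difference of VD(-) less VD(+) on the log2 scale for each of the 7 genes, with 95% confidence intervals from limma, over all 10 arrays and from the single samples and the pools. Every interval over the 10 arrays spans 0, from Mzb1 at 0.22 to Irf4 at −0.12.

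The 7 genes did not move together from array to array. Over the 10 arrays the 21 pairs of members had Pearson correlations between −0.67 and 0.52, with a median of −0.091 and 9 above 0. None passed a permutation test after adjustment over the 21 pairs, where the lowest adjusted p was 0.716. The lowest correlation was that of Irf4 with Derl3, with r of −0.67 (permutation p = 0.0341, adjusted p = 0.716) and Spearman's rho of −0.47 (permutation p = 0.178, adjusted p = 0.983). It was −0.75 without the 2 arrays with extreme Irf4 (VD(-) replicates 1 and 3), −0.69 within VD(-) and −0.87 within VD(+). Xbp1 and Derl3, the gene with the full ER stress element, had r of 0.12 (permutation p = 0.735, adjusted p = 0.845) and rho of 0.067 (permutation p = 0.865, adjusted p = 0.993). That r was 0.43 without VD(+) replicate 1 and VD(-) replicate 1, 0.73 within VD(-) and −0.23 within VD(+).

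Irf4 varied from array to array with the genes of B cell progenitors. The mean of 11 pro-B and pre-B cell markers (among them Rag1, Igll1, Vpreb1 and Dntt, which rearrange or stand in for immunoglobulin chains in developing B cells) ran in VD(+) at 6.27, 6.70, 6.65, 6.70 and 6.59. In VD(-) it ran at 7.03, 6.35, 5.98, 7.33 and 6.52, so that replicate 1 and pool1 were highest and replicate 3 lowest, as for Irf4. Across the 10 arrays r was 0.90 (permutation p = 0.00038, adjusted p = 0.0213) and Spearman's rho was 0.90 (permutation p = 0.00083, adjusted p = 0.0465), with adjustment over 56 relations of 7 members and 8 marker lists. No other of the 56 passed. Before adjustment, 8 of the 56 had a permutation p under 0.05 for r, this relation included. Without VD(-) replicate 3 and pool1, the arrays farthest from the middle, r was 0.86. It was 0.97 within the 5 VD(-) arrays, 0.77 within the 5 VD(+) arrays and 0.92 after the group means were taken out. The marker list has 1 value per array from the same RNA as Irf4, so shared features of an array enter both. VD(-) replicate 1 and pool1 also carried the strongest Y-linked signal, and VD(-) replicate 3 lacked it. The part of that signal in this relation was not tested.

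Markers of other cells varied with Irf4 too, although none of these relations passed the adjustment. With T and NK cell markers r was −0.68 (permutation p = 0.0314, adjusted p = 0.341) and rho −0.66 (permutation p = 0.0440, adjusted p = 0.352). That r was −0.33 without VD(-) replicates 1 and 3, −0.95 within VD(-) and 0.24 within VD(+), so it rests on those arrays. With stroma markers r was 0.60 (permutation p = 0.0662, adjusted p = 0.412) and rho 0.77 (permutation p = 0.0128, adjusted p = 0.313), and r was 0.33 without VD(-) replicate 1 and pool1, 0.85 within VD(-) and 0.35 within VD(+). With tissue macrophage markers r was 0.54 (permutation p = 0.103, adjusted p = 0.480) and rho 0.67 (permutation p = 0.0392, adjusted p = 0.352), and r was 0.33 without VD(+) replicate 1 and VD(-) pool1, 0.86 within VD(-) and 0.68 within VD(+). After the group means were taken out, r was 0.74 with the macrophage markers, 0.73 with the stroma markers and −0.67 with the T and NK cell markers. The part of these cells in the values of Irf4 was not tested.

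**Figure D3:**
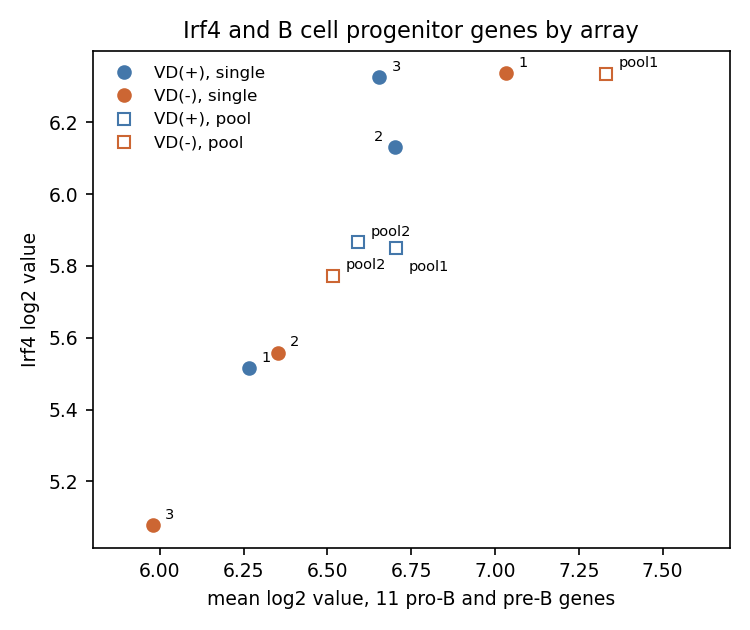
Log2 intensity of Irf4 against the mean log2 intensity of 11 pro-B and pre-B cell markers, 1 point per array (n = 10, circles, single samples, open squares, pools). Arrays with a high marker mean tend to have high Irf4, with r of 0.90, and VD(-) replicate 3 lies at the lower left.

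Of the 11 markers singly, 9 had a correlation with Irf4 above 0. Rag1, a subunit of the recombinase, was highest at 0.93, and Igll1, Vpreb1, Dntt and Cd79b ranged from 0.81 to 0.74. Lef1 (−0.35) and Erg (−0.51), transcription factors that other lineages use as well, ran the other way. These are descriptions over the same 10 arrays and were not tested singly. Between the groups 0 of the 11 markers passed an unadjusted p under 0.05 in limma, with 7 above 0 and a median of 0.16, and with the Y-linked covariate the median was −0.44.

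Proteins of the IRF family bind the interferon-stimulated response element, searched for on both strands as GAAA and GAAA with 2 bases between them. The promoter of Tnfrsf17 is shown because it was the member window that held it, with the match, on the minus strand, in capitals. The 250 bases before its start are from RefSeq (GRCm38.p6, chr16:11313559-11313808, plus strand).

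Tnfrsf17: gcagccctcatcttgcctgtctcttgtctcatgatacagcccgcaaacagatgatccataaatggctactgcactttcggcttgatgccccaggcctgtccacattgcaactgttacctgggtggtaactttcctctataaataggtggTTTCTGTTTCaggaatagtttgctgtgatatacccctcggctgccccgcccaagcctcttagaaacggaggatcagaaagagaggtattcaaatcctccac

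That element occurred in 1 of the 6 member windows and in 2.98% of the 32851 windows. The composite of an ETS and an IRF site (GGAA and GAAA with 2 bases between them) was in 0 of 6 and in 2.3% of windows. Between Tnfrsf17 and Irf4 the r was 0.099 (permutation p = 0.792, adjusted p = 0.845) and rho was 0.27 (permutation p = 0.449, adjusted p = 0.983). That r was −0.21 without VD(-) replicates 1 and 3, 0.45 within VD(-) and −0.17 within VD(+).

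Of 20 other regulators and receptors of plasma cells, 19 were measured, with 10 above and 9 below 0 and a median of 0.026. None reached an unadjusted p under 0.05 as higher and 1 as lower, against 3.85% and 3.23% of all probe sets. The 1 was Ikzf3 (Aiolos, a zinc finger factor of late B cells), at 6.41 ± 0.21 in VD(-) and 6.70 ± 0.16 in VD(+), a difference of −0.29 (SE 0.11, adjusted p = 0.637 by limma, exact permutation p = 0.0556). The next 3 were Tnfrsf13c (BAFF receptor) at −0.16 (SE 0.093), Ccr10 (a homing receptor of IgA plasma cells) at −0.14 (SE 0.088) and Slc3a2 (the heavy chain of an amino acid transporter) at 0.15 (SE 0.094).

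The secretory machinery is the part of the program that XBP1 runs. Of 45 XBP1 targets and genes of the secretory pathway 43 were measured, 31 lay above 0 and 12 below, where 50.3% of all genes lay above 0. The median was 0.039, and 0.079 with the Y-linked covariate. At an unadjusted p under 0.05, 3 were higher and 0 lower, against 3.85% and 3.23% of all probe sets, and 0 passed the adjusted p. Spcs3, a subunit of the signal peptidase, read 9.77, 9.93, 9.83, 9.86 and 9.85 in VD(+) and 10.07, 10.17, 9.99, 9.99 and 10.19 in VD(-), without overlap. Its difference was 0.23 (SE 0.066, adjusted p = 0.471 by limma), and the exact permutation p of 0.00794 is the smallest possible.

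Sdf2l1, a cofactor of the chaperone BiP, was at 7.58 ± 0.21 in VD(-) and 7.22 ± 0.25 in VD(+), a difference of 0.36 (SE 0.14, adjusted p = 0.634 by limma, exact permutation p = 0.0476). Creld2, a protein of the endoplasmic reticulum induced under stress, differed by 0.23 (SE 0.10, adjusted p = 0.695 by limma), and Txndc11, a thioredoxin-like protein, by −0.15 (SE 0.071, adjusted p = 0.732). The mean of the 43 genes ran from 8.36 to 8.40 in VD(-). In VD(+) it was 8.22, 8.39, 8.30, 8.33 and 8.31, so that the groups overlapped through VD(+) replicate 2 alone. Of the 43 genes, 0 had a mean below the median probe set. The part of cells other than plasma cells in these values was not tested.

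The full ER stress element that Derl3 carries was also looked for before the 33 of these 43 genes that had a window. It stood before 8 of them, including Hspa5 (BiP), Hsp90b1, Pdia6, Calr and Canx, which are chaperones or folding enzymes. Of the 8, 6 lay above 0, where 31 of the 43 genes of the list did. The 8 ran from −0.11 for Calr to 0.23 for Creld2. Their median was 0.084 beside 0.034 for the genes that had a window but not the element. The part of the element in these values was not tested. Of these 8, 1 (Creld2) passed an unadjusted p under 0.05.

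**Figure D4:**
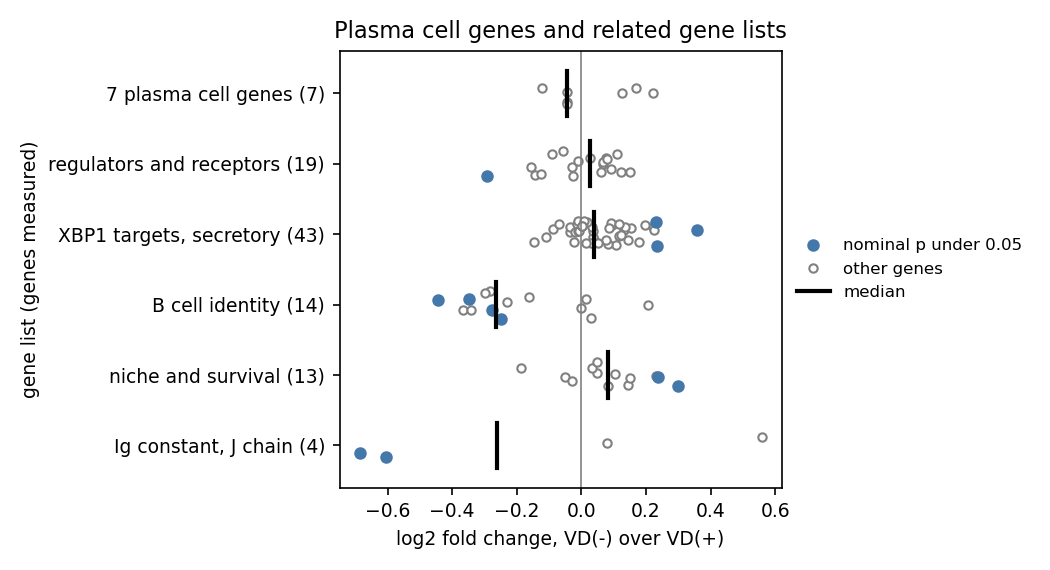
Log2 difference of VD(-) less VD(+) for every measured gene of the plasma cell lists and of B cell identity, with each list's median as a bar. Values of the secretory list lie mostly above 0 (31 of 43) and those of B cell identity mostly below (11 of 14), while the 7 members scatter on both sides.

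Antibody genes are the main product of these cells. Of 13 immunoglobulin constant region and J chain genes, 4 had a probe set of their own. Jchain, which links the units of IgA and IgM, was 10.19 ± 0.21 in VD(-) and 10.11 ± 0.16 in VD(+), a difference of 0.080 (SE 0.11, adjusted p = 0.916 by limma, exact permutation p = 0.500). Igha, the constant region of IgA, read 8.53, 9.06, 8.70, 9.02 and 8.67 in VD(+) and 7.94, 8.35, 8.03, 8.26 and 8.39 in VD(-), without overlap.

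The difference of Igha was −0.60 (SE 0.13, adjusted p = 0.216 by limma, exact permutation p = 0.00794), and its other probe set gave −0.69 (SE 0.12, adjusted p = 0.0829). The mean of its probe sets gave −0.65 with an adjusted p of 0.0339 by limma, over genes in place of probe sets. Ighg3, the constant region of IgG3, differed by −0.69 (SE 0.26, adjusted p = 0.629), with VD(+) from 4.69 to 5.88 and VD(-) from 4.19 to 5.03. Ighm, of IgM, differed by 0.56 (SE 0.27, adjusted p = 0.730 by limma) on its brightest probe set, where the Y-linked covariate gave 1.13 (SE 0.21, adjusted p = 0.161), and by −0.0055 and 0.080 on the others, so that its probe sets disagree. Constant regions share sequence with one another, and a probe set can catch RNA of a related gene.

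The B cell program that Blimp-1 shuts off was read through 14 of 16 genes. Of these 11 lay below 0 and 3 above, with a median of −0.26 that was −0.46 with the Y-linked covariate. At an unadjusted p under 0.05, 4 were lower and 0 higher, against 3.23% and 3.85% of all probe sets, and 0 passed the adjusted p. The 4 were Ms4a1 (CD20) at −0.45 (SE 0.13, adjusted p = 0.521 by limma), Cd22 (an inhibitory receptor) at −0.35 (SE 0.15, adjusted p = 0.683), Pax5 (the factor of B cell identity) at −0.28 (SE 0.12, adjusted p = 0.684) and Ciita (the regulator of MHC class II genes) at −0.25 (SE 0.11, adjusted p = 0.692). Bcl6, the repressor of the germinal centre that opposes Prdm1, differed by 0.21 (SE 0.15, adjusted p = 0.819 by limma). With the Y-linked covariate it differed by 0.58 (SE 0.074, adjusted p = 0.0324 by limma), which passed, and it is named after its values were seen. Only VD(-) arrays carried Y-linked signal, so that signal and the group are partly confounded in this fit. Bcl6 read 7.69 and 7.78 in VD(-) replicates 2 and 3, which lacked the signal. It read 6.99, 6.99 and 7.34 in VD(-) replicate 1, pool1 and pool2, which carried it, and from 7.09 to 7.22 in VD(+). Ms4a1 and Cd22 are also on a separate list of mature B cell markers. Of the 10 genes measured on that list 9 lay below 0, with means per array from 6.38 to 6.76 in VD(-) and from 6.64 to 6.87 in VD(+). The median of these markers was −0.20, and −0.063 with the Y-linked covariate. Of the 10, 4 were lower at an unadjusted p under 0.05, Ms4a1 and Cd22 among them, and 1 passed the adjusted p. That gene, Fcer2a (the low-affinity IgE receptor CD23), named for this reason, was at 5.82 ± 0.099 in VD(-) and 6.40 ± 0.13 in VD(+) without overlap, a difference of −0.58 (SE 0.081, adjusted p = 0.0305 by limma), with an adjusted p of 0.0831 under the Y-linked covariate. Their part in the values of this program was not tested.

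Of 15 genes of the plasma cell niche 13 were measured, with 10 above 0 and 3 below, where 50.3% of all genes lay above 0, and a median of 0.082. At an unadjusted p under 0.05, 2 were higher and 0 lower, against 3.85% and 3.23% of all probe sets, and 0 passed the adjusted p. Cd86, a costimulatory molecule, differed by 0.30 (SE 0.11, adjusted p = 0.634 by limma, exact permutation p = 0.0476). Cxcl12 was at 9.71 ± 0.18 in VD(-) and 9.48 ± 0.11 in VD(+), a difference of 0.24 (SE 0.095, adjusted p = 0.663), which was 0.11 with the Y-linked covariate. Vcam1, an adhesion molecule of stroma and macrophages, differed by 0.23 (SE 0.13, adjusted p = 0.755) and Epx, an enzyme of eosinophils, by 0.14 (SE 0.12, adjusted p = 0.824). Cxcl12 is also on the stroma list, of which 9 of 11 genes lay above 0 (list means per array from 6.64 to 7.36 in VD(-) and 6.61 to 7.0 in VD(+)), and Vcam1 is on the tissue macrophage list, with 13 of 13 above 0 (7.53 to 8.09 and 7.10 to 7.72). With the Y-linked covariate the median of the stroma list turned from 0.19 to −0.16, and that of the tissue macrophage list went from 0.22 to 0.028. The median of the niche list itself was 0.13 with that covariate. Cd86 then differed by 0.30, Epx by 0.13 and Vcam1 by 0.053. The part of these cells in the niche values was not tested.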

How the data were processed

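Arrays of total BM RNA, 10 in all, were analysed. The authors made the deposited log2 values in Partek with RMA, per the methods and the submitters' processing notes. RMA corrects background, equalises the distributions of the arrays and summarises probes, so differences in total RNA are removed. Array medians lay between 4.74 and 4.80, and correlations between arrays over all probe sets between 0.980 and 0.989. A miRNA array is named in the methods, but the probe sets are those of a mouse gene array. Arrays give no read depth, so their number limits precision. The number of columns not used was 0, while for filters and genome build the sources used here give nothing.

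Of 35556 probe sets, 21789 list 1 gene, 1621 several and 12146 none. By gene identifier, 21698 matched a current gene table, with the symbols of all 7 members unchanged. The brightest probe set stood for a gene. Groups, taken from the labels, were fitted by limma 3.58.1 (R 4.3.3; lmFit, then eBayes), with two-sided p-values adjusted over all probe sets (Benjamini-Hochberg), and single members also with exact permutation tests. Correlations used 100000 permutations. The procedure was tested on simulated data.

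The members and lists were chosen with earlier results of these data known. Named are all members, of 5 lists the 4 genes with the smallest unadjusted p, and the genes most like a member (3) or the members' mean (6). Motifs were searched in RefSeq windows (GRCm38.p6) with Python 3.11.15. Alternatives were the methods' t-test, brighter probe sets alone, cyclic loess, array weights, a trended robust spread, single or pool as a covariate, each alone, Y-linked less Xist signal as a covariate, a block for replicate number, a gene's probe sets averaged, probe sets with 1 gene alone and leaving out each array. Arrays without Y-linked signal alone were added after seeing the data.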

Additional observations from a re-analysis of the deposited data

Results flagged for a closer look

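In 54 groups of 5 arrays (each named member or listed gene in VD(-) or VD(+)), 3 had an array whose gap to its nearest neighbour took up more than 0.71 of the group's range, Dixon's limit for 5 values. Chance gives about 1 in 20 groups, and among the 14 groups of the 7 members there was 1. It was Mzb1 in VD(-) pool1, at 7.14 where the other VD(-) arrays lay between 6.80 and 6.87. Cd22 was low in VD(-) replicate 2, at 6.56 beside 7.0 to 7.16 in the other VD(-) arrays. Vcam1 was low in VD(+) replicate 1, at 10.03 beside 10.40 to 10.54 in the other VD(+) arrays.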

How the results depend on the processing

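No member passed the adjusted p of limma, or of the methods' t-test, in any of the 160 pairs of a member and an alternative that could be computed (Prdm1 had no value among the brighter probe sets), and 12 of the 160 reversed in sign. At an unadjusted p under 0.05 the number of members higher was 0, and 1 (Mzb1) with single or pool as a covariate, in the single samples alone and with the replicate block. It ran from 0 to 1 when each array was left out, with Mzb1 at a limma p of 0.0451 without VD(+) pool1 and 0.0358 without VD(+) pool2, and Xbp1 at 0.0384 without VD(-) pool1. The number lower was 0, and 1 (Irf4) with the Y-linked covariate and on the arrays without Y-linked signal, which were chosen after seeing the data. The median of the members was −0.044, and it was 0.15 in the single samples, 0.055 in the pools, 0.074 with the Y-linked covariate, 0.10 on the arrays without Y-linked signal and −0.055 to 0.063 with an array left out.

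Signs turned in the single samples for Sdc1 (0.025), Tnfrsf17 (0.068) and Derl3 (0.17), in the pools for Irf4 (0.20), with the Y-linked covariate for Derl3 (0.074) and Jchain (−0.0077), and on the arrays without Y-linked signal for Derl3 (0.10). With an array left out, Derl3 ran from −0.16 to 0.023, Tnfrsf17 from −0.11 to 0.040, Irf4 from −0.25 to 0.063 (without VD(-) replicate 3) and Sdc1 from −0.10 to 0.022. The cause was not tested. Prdm1, Xbp1 and Mzb1 stayed above 0 in each alternative that gave a value.

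Over all probe sets the count past the adjusted p was 42, and 9 by the methods' t-test, 1 in the single samples, 2 in the pools, 25 with the Y-linked covariate, 3 with the replicate block, 12 on the arrays without Y-linked signal and 7 to 43 with an array left out. The labels share replicate numbers between the groups. Deviations of same-numbered arrays correlated between −0.052 and 0.061, and only replicate 2 matched its own number best, so no pairing by number was seen over all probe sets. These correlations cannot show whether same-numbered arrays were handled together. The probe sets of Prdm1 and Tnfrsf17 were dim, and those of Sdc1 and Derl3 little brighter. With 5 arrays a group, changes inside the intervals given for each member could not be seen.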

Other observations

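The genes whose array-to-array pattern was most like that of a member were ranked by Pearson correlation of values less their group means, over 10 arrays, as a description among the 10691 other genes with a mean above the median probe set (10692 for Prdm1 and 10686 for the mean of the members). For Irf4 they were Cnep1r1, Zbtb43 and Gm10364 (0.98 each), for Xbp1 Ctdspl (0.97), Usp53 (0.95) and Sirt6 (0.91), and for Prdm1 Tmem160 (0.94), Coro1b (0.92) and Limd2 (0.92). For Sdc1 they were Klhl22 (0.92), Creb3 (0.91) and Pex2 (0.90), and for Tnfrsf17 Ociad2 (0.96), Pip4p1 (0.94) and Myl9 (0.92). For Mzb1 they were Serpinh1 (0.93), Yif1a (0.92) and Uvssa (0.91), and for Derl3 Adipor2 (0.98), Myo18a (0.97) and Hoxb3 (0.95). For the mean of the 7 members they were Guf1 (0.95), Pex2 (0.94), C1galt1 (0.94), Slc25a36 (0.93), Ndufs1 (0.92) and Miip (0.92). No member was among another member's first 3. With 10 arrays and so many genes, correlations of this height are found by rank alone.

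After Irf4 with the progenitor markers, the relation with the lowest p among the 56 was that of Mzb1 with the mean of 13 tissue macrophage markers. Its r was 0.82 (permutation p = 0.00561, adjusted p = 0.157) and its rho 0.53 (permutation p = 0.122, adjusted p = 0.506). Without VD(+) replicate 1 and VD(-) pool1 r was 0.41, so that it rests on those 2 arrays, and it was 0.79 within VD(-) and 0.74 within VD(+).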
